A study of Homo sapiens with 12 samples.

Results

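The genes described here are 37 centromere, kinetochore and chromosomal passenger components, a list of named genes taken whole. Each was read from the probe set that carries its symbol alone, the brightest by mean over the 12 arrays where there were several. All 37 of 37 were measured, among 18417 genes in all. They comprise 13 constitutive inner kinetochore genes, 15 outer kinetochore genes and 9 others, which load the centromeric histone, form the chromosomal passenger complex, protect sister chromatid cohesion or act in the spindle checkpoint.

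The kinetochore is the protein assembly that joins each chromosome to spindle microtubules at cell division. Its inner layer, the constitutive centromere-associated network (CCAN), sits on nucleosomes that hold the histone variant CENP-A throughout the cell cycle. The outer layer is built on it for mitosis, binds microtubules and recruits the checkpoint proteins that delay anaphase until every chromosome is attached.

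The RNA came from EA.hy 926, an immortal hybrid of human endothelial cells and lung carcinoma cells. Pemetrexed (PMX) is an antifolate that inhibits enzymes of thymidylate and purine synthesis. There were 4 groups with 3 biological replicates each. Lo PMX cells had been adapted to medium with 23 nM folic acid and were given 0.5 uM pemetrexed for 48 h. Lo control cells were the same adapted culture without the drug. Hi PMX cells were a parallel culture kept at 9 uM folic acid and given the same drug for the same time. Hi control cells were that culture without the drug. All were confluent, in medium with 10% serum that had been renewed 24 h before treatment. Lo cells were a separately adapted culture of 1 line, so Lo against Hi holds any other difference between the cultures.

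Values are log2 expression levels per probe set, and array medians ran between 7.24 and 7.33. A level is not comparable between genes, because probe sets differ in how strongly they bind. Of the endothelial markers 8 of 8 were measured, and 4 were lower in Lo PMX than in Lo control cells, with array means of 10.13 to 10.23 in Lo PMX, 10.59 to 11.34 in Lo control, 11.28 to 11.48 in Hi PMX and 10.58 to 11.53 in Hi control cells. Of the epithelial, fibroblast and leukocyte markers, 0 of 7, 0 of 7 and 1 of 6 differed between Lo PMX and Lo control cells, which was LYZ, with a log2 change of -0.81.

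Both arrays labelled control replicate 3 stood apart from their groups. On the first principal component, which held 61.1% of the variance, Lo control 3 lay at -19.3, among the Hi arrays. Hi control 3 lay at 8.94, beside the other Lo controls at 7.18 and 6.75. Over the 37 genes Lo control 3 differed from the Hi PMX arrays by 0.16 on average (mean absolute log2 difference). It differed from the other Lo controls by 0.17 and from the Hi controls other than replicate 3 by 0.19. From the Lo PMX arrays it differed by 0.78. Hi control 3 differed from the Lo controls other than replicate 3 by 0.14, from the other Hi controls by 0.24 and from the Lo PMX arrays by 0.79. An exchange of these 2 labels is possible and was not tested, and every value from 12 arrays takes the labels as given. With the 10 arrays left without both, 644 of all genes were lower and 676 higher in Lo control than in Hi control cells, against 0 with 12. Results are therefore given with all 12 arrays and, where a call changes, with those 10 arrays.

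Under pemetrexed 24 of the 37 genes fell in Lo cells and none rose. They included all 4 genes of the Ndc80 complex, both genes of the Knl1 arm, all 3 of the Ska complex, all 3 of the passenger complex and both shugoshins. The deepest falls were in CENPI, with a log2 change of -1.95 ± 0.13, and SGO2, with -1.88 ± 0.12. Errors after ± are standard errors of the limma model, with n = 3 arrays a group where no array was left out. Fits without both replicate 3 controls had 2 arrays in each control group. Of the 37, 13 fell by at least 2-fold, as did 123 of all genes (0.668%). In Hi cells the same drug moved none past the threshold.

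A gene passed where the Benjamini-Hochberg adjusted p of limma, over all 18417 genes, was under 0.05. Of all genes 5.14% passed as lower and 5.6% as higher in Lo PMX against Lo control cells, against 24 and 0 of the 37. The median log2 change was -0.82 over the 37 and 0.02 over all genes, and 34 of 37 changes were negative. With the 10 arrays 25 genes fell, of which 23 were among the 24, and 5.74% of all genes passed as lower and 5.21% as higher. In bulk RNA, fewer cells in division and less of each RNA per cell cannot be told apart.

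**Figure D1:**
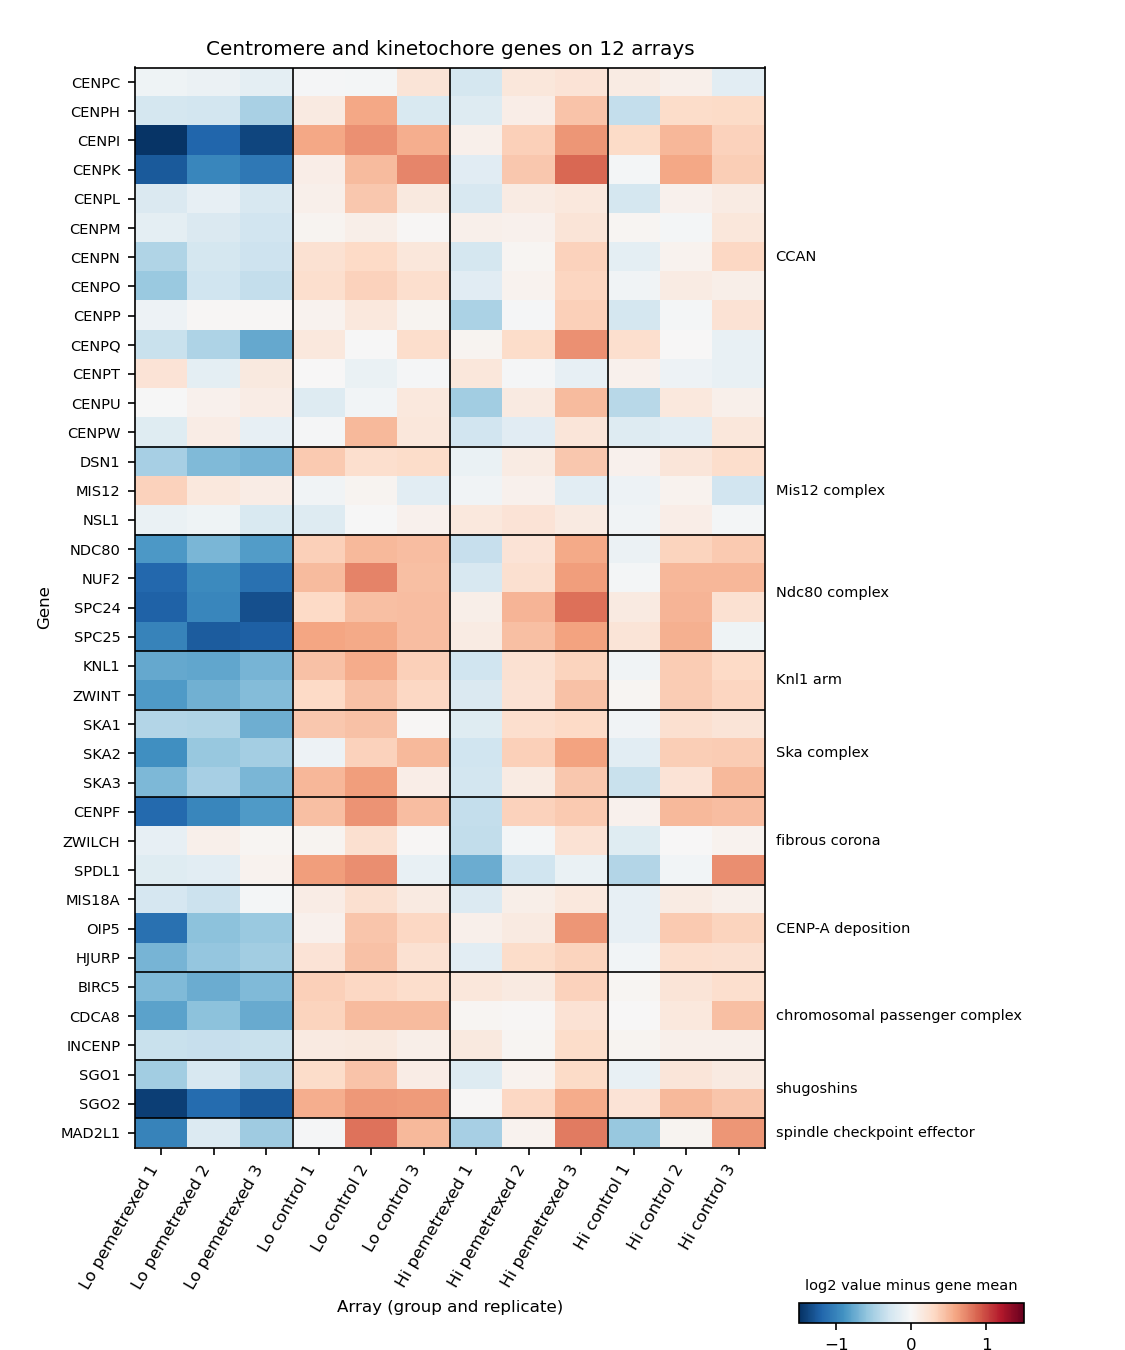
Log2 level of each of the 37 genes (down the page, by role) on each of the 12 arrays (across, by group), as the difference from that gene's mean over all arrays, blue below it and red above it. Most genes are lowest on the 3 Lo PMX arrays, and CENPT, CENPU, MIS12 and ZWILCH are among those that are not.

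Among the inner kinetochore genes 6 of 13 fell in Lo PMX cells, 3 of them in 1 branch of the network. The CENP-H, -I, -K and -M branch, which helps to hold the network together, had 3 of 4 genes lower. CENPI had log2 levels of 7.92, 8.20 and 8.01 in Lo PMX cells, against 9.97, 10.07 and 9.93 in Lo control cells. It had 9.47, 9.75 and 10.05 in Hi PMX cells, against 9.68, 9.89 and 9.74 in Hi control cells. All 3 Lo PMX arrays lay below the other arrays, and the Hi groups overlapped. CENPI was 3.86-fold lower in Lo PMX than in Lo control cells (95% interval of the log2 change -2.22 to -1.67, limma adjusted p = 4.5e-06), and its change in Hi cells was -0.01 ± 0.13.

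CENPK of the same branch fell by 1.55 ± 0.23 on the log2 scale (adjusted p = 0.0012). CENPM fell by 0.26 ± 0.07 (adjusted p = 0.0377). The call was lost on leaving out any 1 of 7 arrays, namely each Lo PMX array, each Lo control array or Hi PMX 2. It was also lost with only the groups compared in the fit and with an intensity trend. Over these alternatives the adjusted p was up to 0.141. CENPH had a change of -0.51 ± 0.22 (adjusted p = 0.179 with 12 arrays), and of -0.70 ± 0.20 with the 10 arrays (adjusted p = 0.0466).

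In the CENP-L and CENP-N pair, which binds the CENP-A nucleosome, CENPN fell by 0.58 ± 0.14 (adjusted p = 0.0199), and the call was lost without Lo control 2, Lo PMX 1 or Lo PMX 3, with adjusted p up to 0.08. CENPL had -0.40 ± 0.13 (adjusted p = 0.0693) and passed under 6 of 21 alternative settings of the analysis. Of the CENP-O, -P, -Q and -U group, which binds beside it and includes the docking protein for the kinase PLK1, CENPO fell by 0.68 ± 0.11 and CENPQ by 0.66 ± 0.16 (adjusted p 0.00195 and 0.0177). The call of CENPQ was lost without Lo control 3 or Lo PMX 3, with adjusted p up to 0.0839. CENPP had -0.10 ± 0.17, and CENPU, the docking protein, had the smallest change of the inner genes.

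CENPU had log2 levels of 8.91, 8.99 and 9.03 in Lo PMX cells, against 8.73, 8.88 and 9.08 in Lo control cells. It had 8.40, 9.06 and 9.40 in Hi PMX cells, against 8.50, 9.08 and 9.00 in Hi control cells. All 4 groups overlapped. Its change in Lo cells was 0.08 ± 0.21 (95% interval -0.39 to 0.54, adjusted p = 0.889). The histone-fold pair CENP-T and CENP-W, a second route to the outer kinetochore, had 0.10 ± 0.10 for CENPT and -0.27 ± 0.15 for CENPW, and CENPC, the scaffold that binds CENP-A nucleosomes directly, had -0.15 ± 0.12, none past the threshold.

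Of the outer kinetochore genes 11 of 15 fell in Lo PMX cells, with a median log2 change of -1.02. The inner genes had a median of -0.40, and all genes one of 0.02. With the 10 arrays the counts were 11 of 15 and 7 of 13, with medians of -1.11 and -0.43. The difference between the classes was not tested, and they overlapped widely: the inner genes spanned -1.95 to 0.10 and the outer genes -1.70 to 0.26.

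**Figure D2:**
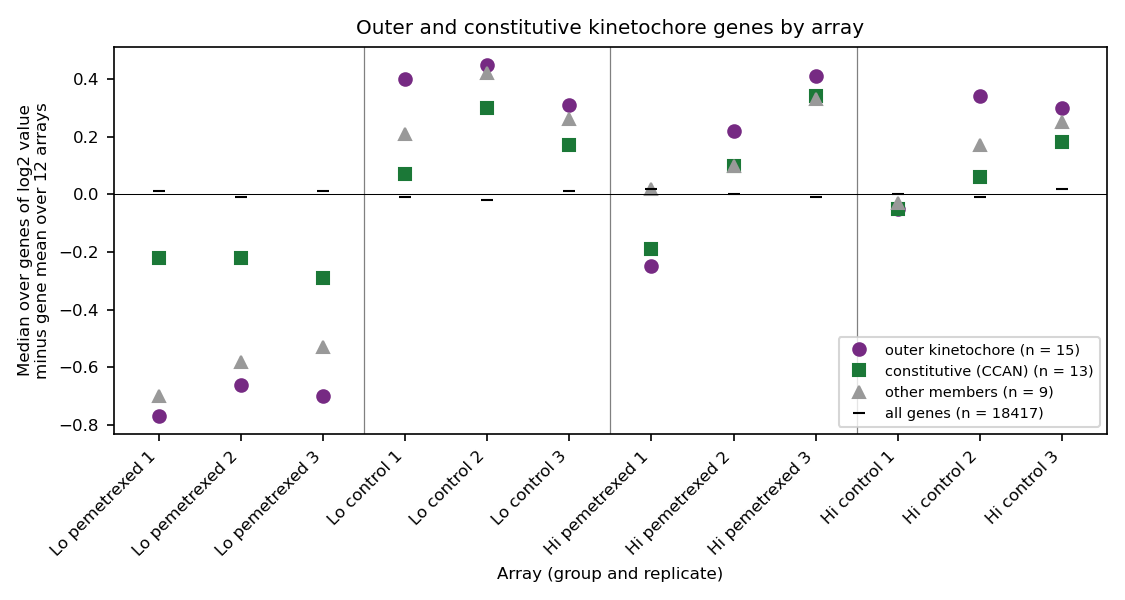
Median over genes of the log2 level minus each gene's mean over the 12 arrays (vertical axis), for outer kinetochore, inner (CCAN) and the 9 other genes and for all genes, on each array (horizontal axis). On the 3 Lo PMX arrays the outer genes sit at -0.77, -0.66 and -0.70 and the inner genes at -0.22, -0.22 and -0.29, while all genes stay between -0.02 and 0.02.

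The Mis12 complex links the inner to the outer layer, and 1 of its 3 measured members here fell. DSN1 had log2 levels of 10.15, 9.99 and 9.95 in Lo PMX cells, against 11.05, 10.90 and 10.93 in Lo control cells. It had 10.55, 10.77 and 11.06 in Hi PMX cells, against 10.72, 10.83 and 10.92 in Hi control cells. The Lo PMX arrays were the 3 lowest. DSN1 was 1.91-fold lower in Lo PMX than in Lo control cells (log2 change -0.93 ± 0.11, adjusted p = 0.000278).

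NSL1, which ties the complex to Ndc80 and Knl1, had the smallest change of the outer genes, with log2 levels of 10.48, 10.52 and 10.35 in Lo PMX cells, against 10.39, 10.57 and 10.65 in Lo control cells. It had 10.74, 10.78 and 10.72 in Hi PMX cells, against 10.53, 10.68 and 10.55 in Hi control cells. The Lo groups overlapped and the Hi PMX arrays lay above the others. Its change was -0.08 ± 0.08 in Lo cells and 0.16 ± 0.08 in Hi cells, neither past the threshold (adjusted p 0.621 and 1.0). MIS12, the subunit that names the complex, was higher on every Lo PMX array than on any Lo control array, with a change of 0.26 ± 0.10 (adjusted p = 0.127).

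The Ndc80 complex is the main microtubule-binding element, and its 4 genes fell between 1.23 and 1.70 on the log2 scale. SPC25, of the end that faces the chromosome, had log2 levels of 6.36, 6.11 and 6.14 in Lo PMX cells, against 7.95, 7.93 and 7.83 in Lo control cells. It had 7.49, 7.81 and 7.97 in Hi PMX cells, against 7.56, 7.89 and 7.30 in Hi control cells. The Lo PMX arrays lay below all others, without overlap. The fall was 3.25-fold (log2 change -1.70 ± 0.15, adjusted p = 2.29e-05). NUF2, which pairs with NDC80 at the microtubule end, fell by 1.64 ± 0.19, SPC24, the partner of SPC25, by 1.57 ± 0.16, and NDC80 by 1.23 ± 0.19 (adjusted p 0.000226, 7.38e-05 and 0.00117).

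KNL1 is the scaffold to which the checkpoint kinase BUB1 and its partners bind. Its log2 levels were 8.62, 8.61 and 8.69 in Lo PMX cells, against 9.83, 9.94 and 9.74 in Lo control cells. It had 9.09, 9.61 and 9.72 in Hi PMX cells, against 9.33, 9.77 and 9.69 in Hi control cells. Again the Lo PMX arrays were lowest without overlap, and the Hi groups overlapped. KNL1 was 2.29-fold lower in Lo PMX than in Lo control cells (log2 change -1.19 ± 0.15, adjusted p = 0.000322), and its partner ZWINT fell by 1.09 ± 0.14 (adjusted p = 0.000426).

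The Ska complex keeps kinetochores on shrinking microtubule ends. SKA3 had log2 levels of 8.60, 8.77 and 8.59 in Lo PMX cells, against 9.77, 9.90 and 9.37 in Lo control cells. It had 8.99, 9.39 and 9.68 in Hi PMX cells, against 8.94, 9.48 and 9.76 in Hi control cells. The Lo PMX arrays were the 3 lowest, though Hi control 1 came close to them. SKA3 was 2.03-fold lower in Lo PMX than in Lo control cells (log2 change -1.02 ± 0.21, adjusted p = 0.00738). SKA1 fell by 0.82 ± 0.15 and SKA2 by 0.92 ± 0.22 (adjusted p 0.00351 and 0.019). The SKA2 call was lost without Lo control 2, Lo control 3 or Lo PMX 1, with adjusted p up to 0.0838, and in the 10 arrays, with -0.81 ± 0.24 and adjusted p = 0.0509. SKA2 had a second probe set, dimmer, with a difference of -0.90 in Lo cells.

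The fibrous corona is the outermost layer, shed as attachments form, and 1 of its 3 genes here fell. CENPF, a large corona protein, had log2 levels of 8.44, 8.62 and 8.75 in Lo PMX cells, against 10.05, 10.27 and 10.06 in Lo control cells. It had 9.25, 9.95 and 10.00 in Hi PMX cells, against 9.67, 10.09 and 10.07 in Hi control cells. No Lo PMX array reached any other. CENPF was 2.87-fold lower in Lo PMX than in Lo control cells (log2 change -1.52 ± 0.18, adjusted p = 0.000217). ZWILCH, of the complex that brings dynein to kinetochores, had -0.10 ± 0.13.

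SPDL1 encodes Spindly, an adaptor for dynein. It had log2 levels of 10.62, 10.65 and 10.86 in Lo PMX cells, against 11.43, 11.50 and 10.69 in Lo control cells. It had 10.06, 10.51 and 10.71 in Hi PMX cells, against 10.36, 10.76 and 11.50 in Hi control cells. The Lo control group overlapped with the other groups only through the replicate 3 controls. Lo control 3 lay at the level of the Hi arrays, and Hi control 3 at that of the other Lo controls. The Lo PMX, Hi PMX and Hi control groups overlapped with each other without those controls as well. With 12 arrays the change in Lo cells was -0.50 ± 0.27 (adjusted p = 0.31), and with the 10 arrays it was -0.75 ± 0.17 (adjusted p = 0.0122).

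CENP-A is loaded by HJURP, its chaperone, at sites marked by the Mis18 complex. OIP5, the Mis18 beta subunit, had log2 levels of 6.12, 6.62 and 6.68 in Lo PMX cells, against 7.30, 7.65 and 7.55 in Lo control cells. It had 7.31, 7.37 and 7.90 in Hi PMX cells, against 7.11, 7.63 and 7.57 in Hi control cells. The Lo PMX arrays were lowest without overlap. OIP5 was 2.05-fold lower in Lo PMX than in Lo control cells (log2 change -1.03 ± 0.19, adjusted p = 0.00408), and HJURP fell by 0.89 ± 0.13 (adjusted p = 0.000821). MIS18A, the alpha subunit, had -0.37 ± 0.11 (adjusted p = 0.0525) and passed under 9 of 21 alternative settings of the analysis.

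The chromosomal passenger complex carries the kinase Aurora B and corrects faulty attachments. CDCA8, which encodes borealin, had log2 levels of 7.98, 8.16 and 8.03 in Lo PMX cells, against 9.12, 9.25 and 9.26 in Lo control cells. It had 8.81, 8.80 and 9.00 in Hi PMX cells, against 8.79, 8.94 and 9.23 in Hi control cells. The Lo PMX arrays were lowest without overlap. CDCA8 was 2.23-fold lower in Lo PMX than in Lo control cells (log2 change -1.15 ± 0.11, adjusted p = 3.88e-05). BIRC5, or survivin, fell by 1.0 ± 0.08 (adjusted p = 1.48e-05) and INCENP, the scaffold, by 0.46 ± 0.07 (adjusted p = 0.00111). A second BIRC5 probe set, dimmer, had a difference of -0.61.

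Shugoshins guard sister chromatid cohesion at the centromere. SGO2 had log2 levels of 6.75, 7.0 and 6.90 in Lo PMX cells, against 8.70, 8.81 and 8.79 in Lo control cells. It had 8.18, 8.47 and 8.71 in Hi PMX cells, against 8.36, 8.64 and 8.57 in Hi control cells. The Lo PMX arrays lay far below all others. SGO2 was 3.69-fold lower in Lo PMX than in Lo control cells (adjusted p = 4.49e-06), and SGO1 fell by 0.66 ± 0.13 (adjusted p = 0.00546).

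MAD2L1, or MAD2, is the checkpoint effector that inhibits CDC20. It had log2 levels of 7.07, 7.87 and 7.54 in Lo PMX cells, against 8.05, 8.89 and 8.56 in Lo control cells. It had 7.57, 8.13 and 8.85 in Hi PMX cells, against 7.5, 8.12 and 8.73 in Hi control cells. The Lo groups did not overlap, but replicates within each group were spread over a wide range. Between same-numbered Lo arrays the difference, PMX minus control, was -0.97, -1.02 and -1.02. The last of these uses Lo control 3, which stood apart from its group. With that array included the replicate numbers were not taken to pair samples. The change in Lo cells, -1.0 ± 0.35, did not pass in the fit of all 4 groups without the replicate number (adjusted p = 0.0943). It passed without that number when only the Lo groups were fitted. With the replicate number, on the 10 arrays, the change was -1.15 and passed (adjusted p = 0.000655).

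**Figure D3:**
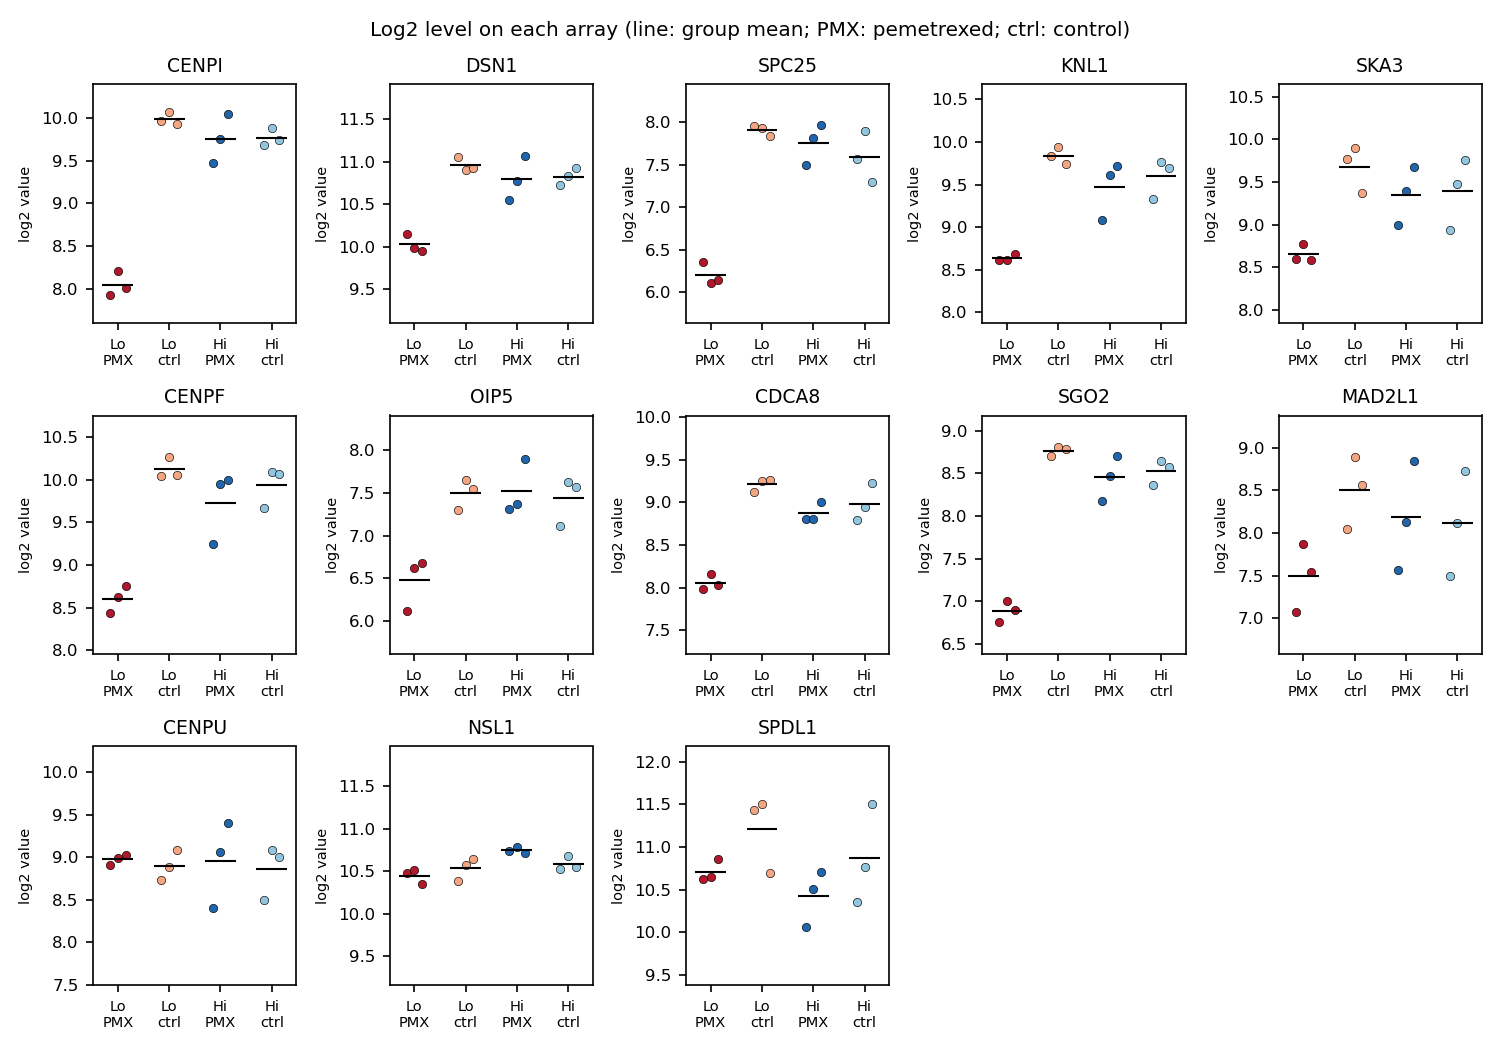
Log2 level (vertical axis, its range set per gene) of the 13 genes given by array, in Lo PMX, Lo control, Hi PMX and Hi control cells (horizontal axis), 1 point per array and a line at each group mean. From CENPI to SGO2 the Lo PMX points lie below all others, while MAD2L1, CENPU, NSL1 and SPDL1 overlap with at least 1 other group.

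Lo PMX arrays lay wholly below the Lo control arrays for 30 of the 37 genes, where 14.1% of all genes did, and wholly above them for 1, MIS12, where 15.7% of all genes did. On the 10 arrays the counts were 31 below (17.8% of all genes) and 2 above, CENPU and MIS12 (21.6%). Without the replicate 3 controls and with replicate numbers entered as a block, 29 genes fell and 1 rose, while 9.99% and 8.39% of all genes did so. In that fit all 24 genes that had fallen with 12 arrays fell again. CENPH also fell, at -0.74 (adjusted p = 0.00717), as did CENPL at -0.45 (0.00421), SPDL1 at -0.86 (0.000148), MIS18A at -0.46 (0.00319) and MAD2L1 at -1.15 (0.000655), and MIS12 rose by 0.26 (0.0487).

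Promoter sequence was set beside these changes because many of the genes moved together. RefSeq windows on GRCh38.p14, from 250 bases before to 50 after an annotated start, were used for 31 of the 37 genes, and none was used for BIRC5, CENPH, CENPL, CENPM, KNL1 or MIS18A. Each was searched on both strands for the cell cycle genes homology region or CHR (TTTGAA or TTCGAA), which the MuvB complexes are known to bind, the CCAAT box (CCAAT), bound by NF-Y, and an E2F-like motif, TTTCGCG with the variants TTTGGCG as well as TTTCCCG. Below are the 70 bases before and 30 after the start, 5′ to 3′ on the gene's strand, with matches on either strand in capitals. The first 5 genes are those with the largest falls in Lo PMX cells among the ones that hold a CHR in this stretch.
SPC25, chr2:168890401-168890500 on the minus strand: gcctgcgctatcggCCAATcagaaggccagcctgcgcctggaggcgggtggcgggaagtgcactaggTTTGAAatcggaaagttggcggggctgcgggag
NUF2, chr1:163321884-163321983 on the plus strand: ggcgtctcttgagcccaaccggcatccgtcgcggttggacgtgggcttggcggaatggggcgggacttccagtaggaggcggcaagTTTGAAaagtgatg
NDC80, chr18:2571487-2571586 on the plus strand: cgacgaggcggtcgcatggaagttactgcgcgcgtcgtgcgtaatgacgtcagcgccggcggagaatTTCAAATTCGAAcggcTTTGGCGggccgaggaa
CDCA8, chr1:37692446-37692545 on the plus strand: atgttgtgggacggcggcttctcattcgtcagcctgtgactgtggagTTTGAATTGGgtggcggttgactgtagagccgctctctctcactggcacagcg
ZWINT, chr10:56361230-56361329 on the minus strand: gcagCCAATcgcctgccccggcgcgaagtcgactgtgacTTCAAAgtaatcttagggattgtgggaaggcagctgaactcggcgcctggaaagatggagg
The next 3 hold a CHR but did not pass the test with 12 arrays.
MAD2L1, chr4:120066819-120066918 on the minus strand: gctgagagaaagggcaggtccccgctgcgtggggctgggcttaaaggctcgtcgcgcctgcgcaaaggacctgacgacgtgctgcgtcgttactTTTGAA
SPDL1, chr5:169583703-169583802 on the plus strand: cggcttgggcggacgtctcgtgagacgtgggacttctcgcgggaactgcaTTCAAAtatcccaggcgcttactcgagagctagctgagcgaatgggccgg
CENPW, chr6:126340045-126340144 on the plus strand: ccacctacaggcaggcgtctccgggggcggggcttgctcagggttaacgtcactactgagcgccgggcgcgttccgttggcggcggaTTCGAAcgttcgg
The last 2 hold no CHR in the whole window; SGO2 fell and MIS12 did not pass.
SGO2, chr2:200526072-200526171 on the plus strand: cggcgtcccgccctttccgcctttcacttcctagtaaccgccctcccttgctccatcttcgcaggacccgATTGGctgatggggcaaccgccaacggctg
MIS12, chr17:5486304-5486403 on the plus strand: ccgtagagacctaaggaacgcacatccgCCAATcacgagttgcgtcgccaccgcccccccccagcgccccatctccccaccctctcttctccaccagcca

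SPC25 holds a CCAAT box ahead of its CHR, and so does ZWINT, while CDCA8 has a reversed CCAAT that shares 1 base with its CHR. NDC80 holds adjoining CHR matches and an E2F-like match. A CHR was present in 14 of 21 windows of genes that fell (66.7%), in 4 of 10 of those not passed (40.0%) and in 5336 of 27305 genes in the table (19.5%). Within 60 bases of the start it was present in 13 of 21 (61.9%), 3 of 10 (30%) and 6.91%. For the CCAAT box the shares were 14 of 21 (66.7%), 8 of 10 (80%) and 39.7%, and for the E2F-like motif 2 of 21 (9.52%), 3 of 10 (30%) and 8.67%. The windows of CENPI, CENPT, DSN1 and NSL1 held none of these letters, CENPI and DSN1 being genes that fell. SGO2, SPC24 and CENPK, with log2 changes of -1.88, -1.57 and -1.55 in Lo cells, held a CCAAT box and no CHR. SPC25 and NUF2, with -1.70 and -1.64, held a CHR. A match is a description of the letters and does not show that a factor binds.

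Other genes of the pathway moved in the same cells. Of 30 further kinetochore and checkpoint genes 26 were measured, and 12 fell in Lo PMX cells and none rose, with a median log2 change of -0.41. The kinase PLK1 fell by 2.44 ± 0.12, the checkpoint kinase BUB1 by 1.92 ± 0.12, its relative BUB1B by 1.4 ± 0.14, the anaphase activator CDC20 by 1.23 ± 0.19, the checkpoint remodeller TRIP13 by 1.09 ± 0.17 and AURKB, or Aurora B, by 1.04 ± 0.10. In Hi cells 0 of the 26 passed.

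General markers of dividing cells moved with the kinetochore genes. All 10 of 10 fell in Lo PMX cells, with a median of -1.37, among them the spindle bundler PRC1 with -2.11 ± 0.15, topoisomerase TOP2A with -1.69 ± 0.13 and MKI67, the Ki-67 antigen, with -0.85. Their mean log2 level ran from 9.24 to 9.28 on the Lo PMX arrays, 10.34 to 10.64 on Lo control, 9.94 to 10.41 on Hi PMX and 10.10 to 10.48 on Hi control arrays. Markers of S phase fell for 9 of 12 genes (median -0.81), with means of 9.03 to 9.28 in Lo PMX, 9.94 to 10.14 in Lo control, 9.62 to 10.17 in Hi PMX and 9.64 to 10.04 in Hi control cells. Of 8 quiescence and arrest genes 6 were measured: CDKN1A, which encodes the inhibitor p21, rose by 0.71 ± 0.09, KLF4 rose by 0.64 ± 0.06 and RBL2, a pocket protein, fell by 0.50 ± 0.11. The part that a change in the share of dividing cells had in the kinetochore values was not tested.

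In Hi PMX against Hi control cells 0 of 37 genes passed, as did 0.0% of all genes in each direction (limma). At an unadjusted p under 0.05 there were 0 of the 37 and 266 of all genes. The changes ran from -0.45 (SPDL1) to 0.28 (CENPQ) with a median of 0.00, and 18 were positive. The median 95% interval reached 1.24-fold to either side of the change, and the widest bounds were -1.04 for SPDL1 and 0.83 for MAD2L1. With the 10 arrays 0 passed as well. NSL1 was the 1 gene whose Hi PMX arrays all lay above the Hi control arrays (2.48% of all genes), and 0 lay wholly below them (2.96%). On the 10 arrays 2 genes, CENPM and NSL1, lay wholly above (7.03%) and 0 wholly below (6.19%).

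**Figure D4:**
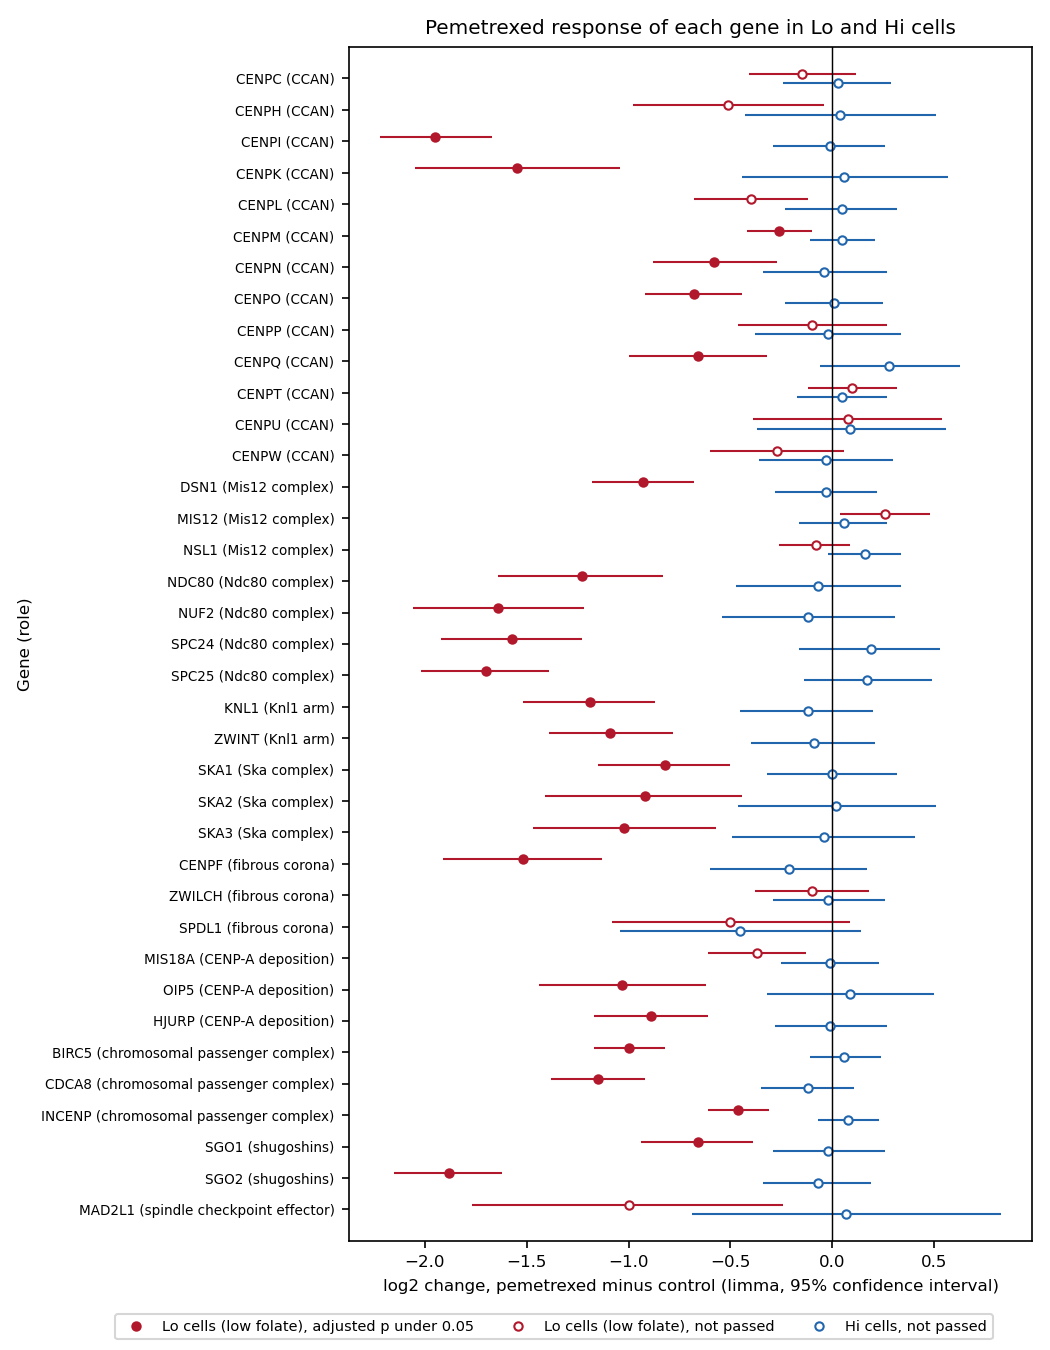
Log2 change under pemetrexed (horizontal axis, treated minus control) of each of the 37 genes (down the page, by role) in Lo cells (red) and Hi cells (blue), with 95% confidence intervals from limma; filled points passed at an adjusted p under 0.05. The 24 filled points are all in Lo cells and below 0, from -1.95 for CENPI to -0.26 for CENPM, while every Hi point is open and lies between -0.45 and 0.28.

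Within the Hi groups the replicates differed from each other across most of the genes. Hi PMX 1 was the lowest Hi PMX array for 30 of 37 genes (34.2% of all genes), and Hi PMX 3 was the highest for 34 (32.8%). Hi control 1 was the lowest Hi control array for 31 (32.8%). Replicates of the Lo groups differed too, for fewer genes. Lo control 2 was the highest Lo control array for 25 (27.4%), and Lo PMX 1 the lowest Lo PMX array for 20 (35.5%). The median deviation of the outer genes was -0.25, 0.22 and 0.41 on the Hi PMX arrays, against -0.05, 0.34 and 0.30 on the Hi control arrays.

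The response to pemetrexed differed between Lo and Hi cells for 19 of the 37 genes, all with the more negative change in Lo cells, where 2.24% of all genes passed in that direction and 2.57% in the other (limma interaction). They were 4 of 13 inner genes, CENPI, CENPK, CENPO and CENPQ, 9 of 15 outer genes, and 6 of 9 others. For CENPI the response in Lo cells minus that in Hi cells was -1.93 ± 0.18 on the log2 scale (adjusted p = 0.000288), for SPC25 -1.88 ± 0.21 (0.000542) and for SGO2 -1.81 ± 0.17 (0.000288). With the 10 arrays the count was also 19 (2.14% of all genes, and 2.02% in the other direction), of which 17 were shared: CENPQ and OIP5 were lost and SKA3 and SGO1 gained. With the replicate block as well it was 27 (4.76%, and 4.68% in the other direction). In the same test 7 of 10 markers of dividing cells, 6 of 12 markers of S phase and 3 of 8 endothelial markers had the more negative change in Lo cells, and their part was not tested.

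Several of these calls were lost when 1 array was left out, whichever of several arrays it was. The call of SKA1, -0.82 (adjusted p = 0.0431), was lost on leaving out any 1 of 10 arrays. These were all but Lo control 3 and Hi PMX 1, with adjusted p up to 0.112. With arrays left out in turn the SKA1 value stayed between -0.97 and -0.72. OIP5 was lost on 7 such omissions (adjusted p up to 0.0763), CENPO on 6 (up to 0.068) and NDC80 on 5 (up to 0.0703). CENPQ was lost on 8. Its adjusted p over all alternatives was up to 0.0965, which was the value on the 10 arrays. The other 14 passed without each array in turn.

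Between treated cultures 24 genes were lower in Lo PMX than in Hi PMX cells and none was higher. Of all genes 11.0% were lower and 11.3% higher. Markers of dividing cells were lower for 8 of 10 genes (median log2 difference -0.97), markers of S phase for 7 of 12 (-0.59) and endothelial markers for 8 of 8 (-0.98), and their part in the kinetochore values was not tested. The median log2 difference was -0.69 over the 37, against 0.01 over all genes. The outer genes had 12 of 15 lower with a median of -0.83, the inner genes 5 of 13 with -0.33, and the others 7 of 9 with -0.75. The comparison uses the same Lo PMX arrays as that of Lo PMX with Lo control cells, so the values stand side by side and are not independent.

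CENPI differed by -1.71 ± 0.13, SPC24 by -1.64 ± 0.16, SGO2 by -1.57 ± 0.12 and SPC25 by -1.55 ± 0.15. NSL1 passed in this comparison, lower by 0.30 ± 0.08 (adjusted p = 0.0201), and the call was lost without Hi PMX 2 or Lo PMX 3 (up to 0.0881). CENPN had -0.39 ± 0.14 (adjusted p = 0.0706) with 12 arrays and was lower with the 10 arrays (-0.39 ± 0.13, adjusted p = 0.0406). The calls of SKA3, SGO1 and SKA2 were lost without 5, 4 and 2 single arrays of these groups, with adjusted p up to 0.127, 0.107 and 0.059. Lo PMX arrays lay wholly below Hi PMX arrays for 26 genes (18.7% of all genes) and wholly above for 1, MIS12 (18.6%). With the 10 arrays MIS12 passed as higher (0.25, adjusted p = 0.0471), beside 25 lower genes (13.7% and 14.0% of all genes), and with the block 28 were lower and 2, MIS12 and SPDL1, higher (18.0% and 17.6%).

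In untreated cells, Lo against Hi control, no kinetochore gene passed with 12 arrays, nor did any gene (0.0%). At an unadjusted p under 0.05 there was 1 of the 37, SPC25 (0.32 ± 0.15), and 387 of all genes. Of the 37 differences 35 were positive, with a median of 0.14 against -0.01 over all genes and a range of -0.05 to 0.39. The Lo control arrays lay wholly above the Hi control arrays for CENPI, CENPO, BIRC5, INCENP and SGO2, 5 of 37, where 2.14% of all genes did, and wholly below them for 0 (3.61% of all genes).

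Without both replicate 3 controls, 1 gene passed, SPDL1, at 11.43 and 11.50 in Lo control cells against 10.36 and 10.76 in Hi control cells (log2 difference 0.90 ± 0.18, adjusted p = 0.0102), where 3.67% of all genes passed as higher and 3.5% as lower. With replicate numbers as a block on these arrays, 6 genes were higher in Lo control cells: SPDL1 by 0.90 (adjusted p = 0.000201), MAD2L1 by 0.66 (0.0297), SKA3 by 0.62 (0.011), CENPL by 0.34 (0.0337), and CDCA8 and SGO1 by 0.32 each (0.0261 and 0.0493), where 6.73% of all genes were higher and 6.42% lower. On the 10 arrays 20 genes lay wholly above in Lo control cells (22.0% of all genes) and 1, CENPC, wholly below (26.0%). Of the markers of dividing cells, 5 of 10 were higher in Lo control cells on the 10 arrays. Their part in the kinetochore values was not tested.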

How the data were processed

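RNA of 12 cultures of the EA.hy 926 line was hybridised to Affymetrix whole-transcript arrays. The authors deposited log2 levels, 1 per probe set and array, from RMA in Partek 6.5, per the submitters' processing notes. RMA settings and the genome build of the array are not given in the sources used here. Detection calls were not used, so a detection limit cannot be stated, and precision is limited by the array number.

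Of 33297 probe sets 19460 had 1 gene symbol in the array's annotation, 1754 had several and 12083 had no gene listed. Of the identifiers, 19429 were found among RefSeq genes. The brightest probe set by mean was used for 769 genes with several, which gave 18417 genes, with no further normalization or filter. Columns were tied to samples through the labels' names.

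The linear model (limma 3.58.1, run in R 4.3.3) had 4 group means over 12 arrays and 5 two-sided contrasts, with moderated variances from eBayes. The threshold was an adjusted p of 0.05, by Benjamini-Hochberg over all genes. Errors after ± are standard errors, and intervals are 95%. The p-values reflect only how biological replicates of 1 line vary. The fit was checked on simulated data.

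Same-numbered samples deviated together (correlation across genes over 0.1) in 11 of 18 pairs with 12 arrays, -0.656 to 0.514. With the 10 arrays they did in 13 of 13 pairs, 0.115 to 0.543. Differently numbered samples did so in 10 of 36 pairs with 12 arrays, -0.607 to 0.52. With the 10 arrays they did in 6 of 24, -0.543 to 0.439. Some of these exceeded same-numbered pairs. On the 10 arrays Hi PMX 3 with Lo control 2 had 0.439, and Hi PMX 2 with Lo control 2 had 0.225. The replicate number was taken to pair samples in the 10 arrays only. There 2 controls are left in a group and their deviations mirror each other.

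The genes, context and marker lists and the arrays left out were chosen with earlier results of these data known. Levels by array are given for the gene with the largest change in Lo cells in each of 10 role groups, for the inner and the outer gene with the smallest change, and for genes passing in control cells. Up to 6 called genes of a context list could be named. Alternatives were the replicate block, leaving out arrays, fitting only the groups compared, averaging probe sets, leaving out dim genes, quantile normalization, array weights and an intensity trend.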

Additional observations from a re-analysis of the deposited data

Results flagged for a closer look

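For 19 of the 37 genes the response to pemetrexed differed between Lo and Hi cells by a test of the difference itself (limma interaction, adjusted p under 0.05). The value given is the log2 change in Lo cells minus that in Hi cells, and a negative value means the more negative change in Lo cells. Among inner kinetochore genes it was -1.93 for CENPI, -1.61 for CENPK, -0.94 for CENPQ and -0.69 for CENPO. In the Ndc80 complex it was -1.88 for SPC25, -1.76 for SPC24, -1.53 for NUF2 and -1.17 for NDC80. In the other outer genes it was -1.31 for CENPF, -1.07 for KNL1, -0.99 for ZWINT, -0.90 for DSN1 and -0.82 for SKA1. In the CENP-A loading genes it was -1.12 for OIP5 and -0.88 for HJURP. In the passenger complex it was -1.06 for BIRC5, -1.04 for CDCA8 and -0.54 for INCENP. In the shugoshin SGO2 it was -1.81.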

How the results depend on the processing

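The count of genes that passed stayed within 1.5 times its value under every alternative for the drug in Lo cells, the drug in Hi cells, Lo against Hi under the drug, and the interaction. The exception was low folate in control cells, where 0 passed with 12 arrays, 1 without both replicate 3 controls and 6 with the replicate block as well; the cause was not tested. With the replicate block on all 12 arrays the counts were 27 in Lo cells (12.2% of all genes in either direction), 0 in Hi cells (0.0%), 0 in control cells (0.0%), 27 in treated cells (24.4%) and 21 for the interaction (5.4%). MAD2L1 in Lo cells passed in that fit (adjusted p = 0.00808 by limma), though replicate numbers were not taken to pair samples over all 12 arrays. MAD2L1 also passed without replicate numbers when only the Lo groups were fitted. Leaving out each array in turn gave 21 to 26 for Lo cells, 0 to 0 for Hi cells, 0 to 0 for control cells, 21 to 26 for treated cells and 14 to 22 for the interaction. Single genes in Lo cells kept their side of the threshold in 734 comparisons with an alternative, lost it in 18 and gained it in 23, and none reversed. The interaction has no alternative with only the groups compared, since all 4 enter it. CENPH and CENPW were left out by the filter on dim genes. Precision is limited by 3 arrays a group, and by 2 in each control group without both replicate 3 controls.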
